A study of Mus musculus with 4 samples.

Results

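The interferon regulatory factors (IRFs) were examined in a comparison of macrophages and other immune cells from mouse skin wounds. The members were the 8 genes Irf1, Irf2, Irf3, Irf4, Irf5, Irf7, Irf8 and Irf9, taken by gene symbol, and all 8 were found among the 24358 gene symbols of the table. They had 17 transcripts, of which 15 were tested by the authors. Macrophages bearing the lectin CD301b and immune cells negative for F4/80, a surface protein of mouse macrophages, were sorted by flow cytometry from the dermis of the wound bed on day 5. The mice were 7-week-old C57/Bl6 males with no further treatment or allele named in the labels, and each population had 2 libraries. The table gives 1 FPKM value (fragments per kilobase of transcript, relative to all mapped fragments) per transcript and population, so no value per library and no error can be given for any level. In every pair of levels joined by the word against, that of CD301b macrophages comes first and that of F4/80-negative cells after it.

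IRFs are transcription factors with a shared tryptophan-rich DNA-binding domain that reads repeats of the letters GAAA. They have separate roles. Irf3, Irf5 and Irf7 wait in the cytoplasm and are activated downstream of sensors of foreign nucleic acids and of Toll-like receptors. Irf9 is part of the complex ISGF3, which switches on the genes of the type I interferon response. Irf1 is induced by interferon gamma and Irf2 is its classic antagonist. Irf4 and Irf8 bind DNA together with the myeloid factor PU.1 and direct the development of dendritic cells and macrophages.

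The populations matched their labels in part. All 7 macrophage markers were higher in CD301b macrophages, led by C1qa, a complement subunit, at 1530 against 425 FPKM. Adgre1, which encodes F4/80, is among the 7, so the sort itself bears on its direction. Its level was 557 against 151 FPKM and it was therefore not absent from the F4/80-negative cells. Mgl2, which encodes CD301b, was lower in the population sorted for it, at 49.2 against 103 FPKM. Because only bulk libraries were made, fewer cells of a type and less RNA per cell cannot be told apart in any result below. It is not stated whether the 2 libraries of a population came from separate animals, so the p-values may cover technical spread only.

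The 8 IRF genes went in both directions: CD301b macrophages had higher levels of 3, lower levels of 2, and no call for 3. The higher genes were Irf2, Irf7 and Irf9, the antagonist of Irf1 and the factors of the type I interferon response. The lower genes were Irf4 and Irf5, the latter through a minor transcript only. Irf1, Irf3 and Irf8 passed in neither direction. A gene was called when at least 1 of its transcripts passed an adjusted p of 0.05 (Benjamini-Hochberg adjustment of the authors' deposited Cuffdiff p-values), none passed the other way and the summed FPKM moved in the same direction. By this rule 11.0% of the 13039 tested genes were higher, 6.20% were lower and 17.2% were called in either direction. The median log2 fold of the 8 genes was 0.25, and that of all tested genes was 0.05, on the log2(FPKM + 1) scale. At an adjusted p of 0.01 the count was 3 higher and 1 lower, Irf4, against 6.50% and 3.54% of all genes, and with the most abundant transcript deciding each call it was again 3 and 1, against 10.4% and 5.82%. With transcripts at 1 FPKM or more it was 3 and 2 (12.6% and 6.96% of all genes), as with protein-coding transcripts alone (11.6% and 6.27%).

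**Figure D1:**
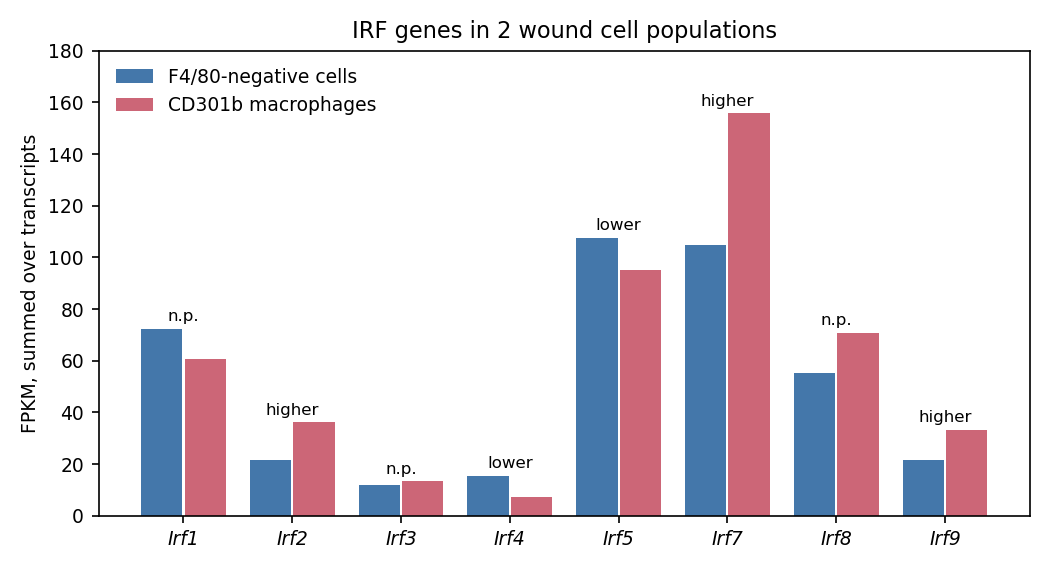
Summed FPKM (vertical axis) of the 8 IRF genes (horizontal axis) in F4/80-negative cells (blue) and CD301b macrophages (red), with no error bars because 1 value per population was deposited; n.p. marks genes not past an adjusted p of 0.05. Irf7 reached 156 FPKM in CD301b macrophages, and Irf4, at 7.34 FPKM there, was the lowest of the 8.

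All 8 genes were expressed in both populations. In F4/80-negative cells the order of levels ran from Irf5 (107 FPKM) through Irf7 (105 FPKM), Irf1 (72.4 FPKM), Irf8 (55.4 FPKM), Irf9 (21.5 FPKM), Irf2 (21.4 FPKM) and Irf4 (15.3 FPKM) to Irf3 (11.9 FPKM). In CD301b macrophages it ran from Irf7 (156 FPKM) through Irf5 (95 FPKM), Irf8 (70.7 FPKM), Irf1 (60.7 FPKM), Irf2 (36.1 FPKM), Irf9 (33.3 FPKM) and Irf3 (13.3 FPKM) to Irf4 (7.34 FPKM). The order within each of the 4 neighbouring pairs was thus inverted, and with no spread between libraries it cannot be said which neighbours differ. The summed level of the 8 genes was 472 against 410 FPKM. Irf7 made up 33.0% of that sum in CD301b macrophages and 25.6% in F4/80-negative cells, whereas the share of Irf5 was 20.1% against 26.2%. Irf5 and Irf7 lay above at least 93.5% of all tested genes in both populations, and Irf4 lay above 68.2% in F4/80-negative cells and 47.9% in CD301b macrophages.

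Irf7, the factor that amplifies the production of type I interferon, had a summed level of 156 against 105 FPKM, a 1.49-fold difference. The gene (NCBI gene 54123) lies on chromosome 7, 141263183 to 141266499, on the minus strand of GRCm38. Its call rested on 1 of 3 transcripts, NM_016850, at 73.7 against 43.8 FPKM (1.68-fold, adjusted p = 0.00516 from the authors' Cuffdiff p-values). NM_001252601 was 64 against 44.5 FPKM and missed the threshold, as did NM_001252600 at 18.0 against 16.5 FPKM. Their adjusted p, from the authors' Cuffdiff p-values, was 0.13 for the former and 0.88 for the latter. The transcript that passed made up 41.7% of the gene's level in F4/80-negative cells and 47.3% in CD301b macrophages. No test of the shares was possible.

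The transcripts of Irf7 encode different proteins, and the coding stretches that set them apart are printed here because the call depended on which transcript was read. NM_016850 has the longest coding sequence (1371 bases). NM_001252601 lacks 96 of those bases (32 codons, chr7:141264560-141264655), which form the 5′ part of an exon. NM_001252600 lacks another 93 bases (31 codons, chr7:141264223-141264315), a whole exon. Both losses keep the reading frame. In the lines below, taken from the GENCODE transcript of NM_016850 on GRCm38 (minus strand, 5′ to 3′), capitals mark the stretch that the other transcript lacks and lower case marks 15 neighbouring bases on each side.
Absent from NM_001252601: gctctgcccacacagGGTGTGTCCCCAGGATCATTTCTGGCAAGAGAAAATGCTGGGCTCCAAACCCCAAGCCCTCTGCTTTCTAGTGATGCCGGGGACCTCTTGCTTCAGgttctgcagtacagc
Absent from NM_001252600: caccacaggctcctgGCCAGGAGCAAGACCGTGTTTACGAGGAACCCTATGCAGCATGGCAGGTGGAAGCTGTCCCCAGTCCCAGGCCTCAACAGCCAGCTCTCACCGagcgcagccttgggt

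Irf9, the DNA-binding subunit of ISGF3, had a summed level of 33.3 against 21.5 FPKM, a 1.54-fold difference. The gene (NCBI gene 16391) lies on chromosome 14, 55603985 to 55610030, on the plus strand. Its main transcript NM_001159418 was 29.6 against 17.8 FPKM (1.67-fold, adjusted p = 0.00674 from the authors' Cuffdiff p-values). This transcript begins at base 55604579, which is 594 bases downstream of the start of NM_008394, and it has 54 coding bases that NM_008394 lacks. NM_008394 was 2.70 against 3.14 FPKM, and the longest form NM_001159417 was 0.918 against 0.634 FPKM. Neither was past the threshold. The transcript from the downstream start made up 82.5% of Irf9 in F4/80-negative cells and 89.1% in CD301b macrophages. Exons of Irf9 share 123 bases (3.97% of their length) with the neighbouring gene Rnf31 on the same strand, and reads from there cannot be assigned with certainty.

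Irf2, which occupies the same DNA sites as Irf1 and mostly represses them, had 1 transcript in the table, NM_008391. Its level was 36.1 against 21.4 FPKM, a 1.69-fold difference (adjusted p = 0.00331 from the authors' Cuffdiff p-values). Its log2 fold of 0.73 was the highest of the 8 members and lay above 94.7% of all tested genes. The gene (NCBI gene 16363) lies on chromosome 8, 46739745 to 46847458.

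For Irf1 no call was made. Its summed level was 60.7 against 72.4 FPKM and neither tested transcript passed. The start of NM_001159396 (33.2 against 41.4 FPKM) lies 481 bases downstream of that of NM_008390 (27.4 against 30.9 FPKM), and the coding sequence of both is the same 987 bases. The adjusted p was 0.73 for the former and 0.86 for the latter, from the authors' Cuffdiff p-values. The remaining transcript, NM_001159393, stayed at 0.118 and 0.114 FPKM and was not tested. The level of Irf1 was 3.38 times that of Irf2 in F4/80-negative cells and 1.68 times in CD301b macrophages, a change in a ratio that was not tested. Exons of Irf1 share 100 bases (3.0% of their length) with the opposite-strand gene Gm17334.

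Irf4 had the largest log2 fold in size of the 8 genes (-0.96), toward lower levels in CD301b macrophages. Its 1 transcript in the table, NM_013674, was 7.34 against 15.3 FPKM. This 2.08-fold lower level had an adjusted p of 0.000999, the smallest that the authors' deposited Cuffdiff p-values allow, and its log2 fold lay at percentile 2.52 of all tested genes. Irf4 (NCBI gene 16364, chromosome 13, 30749233 to 30766981) is needed by a class of dendritic cells that bear CD301b in skin, and it also serves alternatively activated macrophages, B cells and T cells.

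Markers listed for migratory dendritic cells and for the dendritic cells that depend on Irf4 were lower together with it. Some, such as Flt3 and Ccr7, are also carried by other dendritic cells, so the list does not single out a class. Of 9 such markers, CD301b macrophages had lower levels of 8, and Klf4 (101 against 100.4 FPKM) was not called. Among the lower ones was Mgl2, the gene of the sort marker CD301b. Their summed level was 219 against 521 FPKM and none was at 0. Flt3, a receptor of dendritic cell progenitors, was 2.56 against 16.3 FPKM, and Ccr7, the receptor of migrating dendritic cells, was 8.39 against 63.4 FPKM. The part of these cells in the Irf4 result was not tested. Irf4 is also carried by B, plasma and T cells. Of 7 markers of B and plasma cells, 5 stayed below 1 FPKM throughout, Sdc1, the most abundant, was lower at 18.5 against 33.0 FPKM, and Prdm1 was 8.15 against 10.3 FPKM and was not called. Their summed level was 27.3 against 44.1 FPKM, and their part in the Irf4 result was not tested. Among 6 markers of T cells, 3 stayed below 1 FPKM throughout, and Cd2, the most abundant, was 4.05 against 3.95 FPKM.

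Irf8, which like Irf4 binds DNA together with PU.1, was 70.7 against 55.4 FPKM and was not called. Nearly all of it came from NM_008320 (70.5 against 55.2 FPKM, adjusted p = 0.25 from the authors' Cuffdiff p-values), and NM_001301811 stayed at 0.218 and 0.198 FPKM. Irf8 (NCBI gene 15900, chromosome 8, 120736358 to 120756694) was 3.63 times as abundant as Irf4 in F4/80-negative cells and 9.63 times in CD301b macrophages, a ratio that was not tested. Of 7 markers of the dendritic cells that depend on Irf8, 3 were lower and none was higher, with a summed level of 69.5 against 80.0 FPKM. The lower ones were scarce: Xcr1 was 0.278 against 0.631 FPKM, Itgae 0.880 against 2.62 FPKM and Cadm1 1.28 against 1.95 FPKM. Naaa, the most abundant of the 7, was 48.3 against 50.8 FPKM and was not called.

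Irf5, which drives inflammatory cytokine genes downstream of Toll-like receptors, was abundant and nearly equal by summed FPKM, at 95 against 107 FPKM. The main transcript NM_012057 was 85.8 against 90.6 FPKM and was not called (adjusted p = 0.82 from the authors' Cuffdiff p-values). The call of a lower level came from NM_001252382, at 9.26 against 16.9 FPKM (1.82-fold lower, adjusted p = 0.0424 from the authors' Cuffdiff p-values). Both transcripts have the same 1491 coding bases and differ in their first, noncoding exon. The main form begins at base 29526625 of chromosome 6 and the other form 2657 bases downstream, at base 29529282. The downstream form made up 15.7% of Irf5 in F4/80-negative cells and 9.75% in CD301b macrophages. With the most abundant transcript deciding the call, Irf5 (NCBI gene 27056) was not past the threshold.

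Irf3, the constitutive partner of Irf7, was the least abundant member in F4/80-negative cells. It was 13.3 against 11.9 FPKM in all, and its coding transcript NM_016849 was 12.9 against 10.9 FPKM (adjusted p = 0.53 from the authors' Cuffdiff p-values). The noncoding NR_045611 was 0.319 against 0.950 FPKM and was not called. Irf7 was 8.83 times as abundant as Irf3 in F4/80-negative cells and 11.7 times in CD301b macrophages. Irf3 (NCBI gene 54131, chromosome 7, 44997648 to 45002848) shares 8 exon bases with the opposite-strand gene Bcl2l12, and Irf7 shares 45 with Phrf1.

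**Figure D2:**
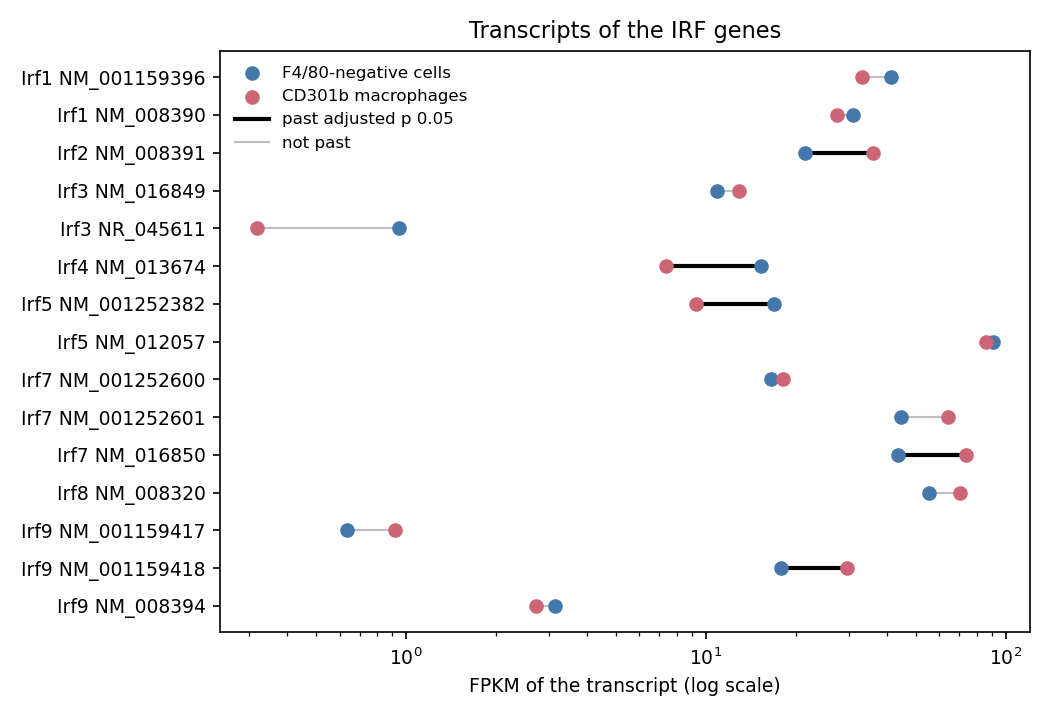
FPKM on a log axis of the 15 IRF transcripts that reached 0.5 FPKM in a population, in F4/80-negative cells (blue) and CD301b macrophages (red), with black lines where the adjusted p was at most 0.05. Irf5, Irf7 and Irf9 each have 1 transcript with a black line, while Irf2 and Irf4 have a single transcript.

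**Figure D3:**
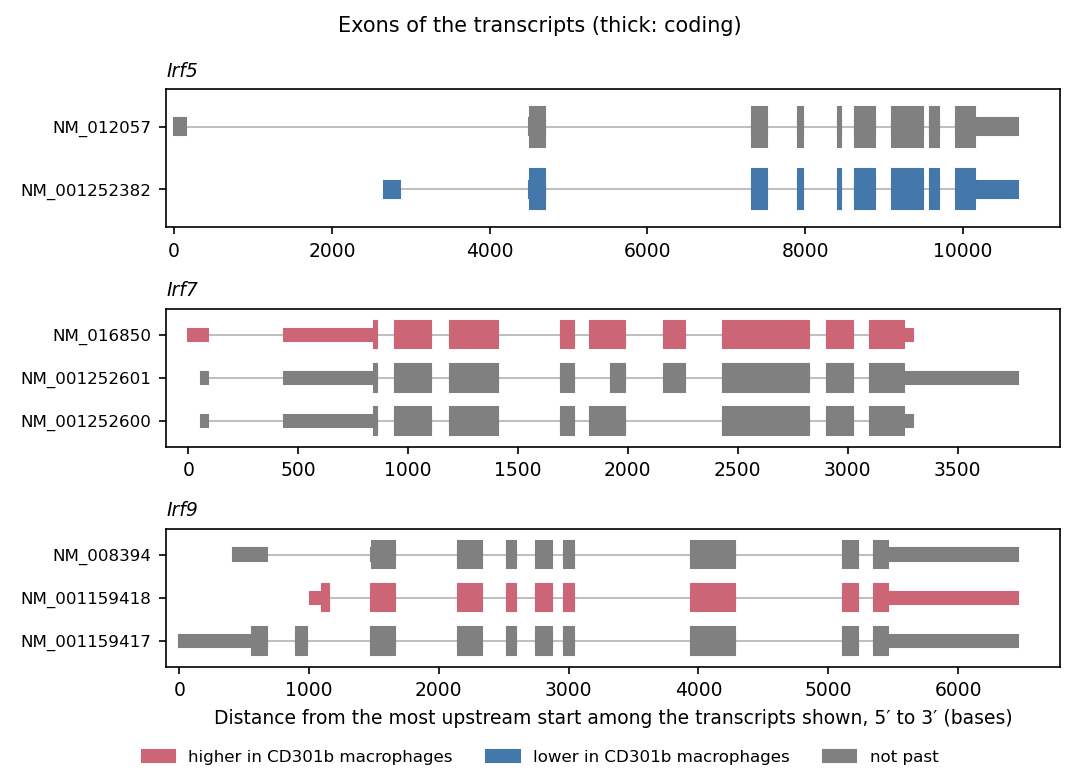
Exons (boxes, coding parts thick) of the transcripts of Irf5, Irf7 and Irf9 by distance in bases from the most upstream start, red where the transcript was higher in CD301b macrophages, blue where lower and grey where not past the threshold. The lower Irf5 transcript starts 2657 bases downstream of the main form and has the same coding exons, and the higher Irf9 transcript starts 594 bases downstream of NM_008394.

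Of the 15 tested transcripts of the family, 3 were higher and 2 were lower, and 14.2% of all 16921 tested transcripts were called. In Irf5, Irf7 and Irf9 a single transcript carried each call. How reads were divided among overlapping transcripts follows the authors' estimate, and its error cannot be read from the table.

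**Figure D4:**
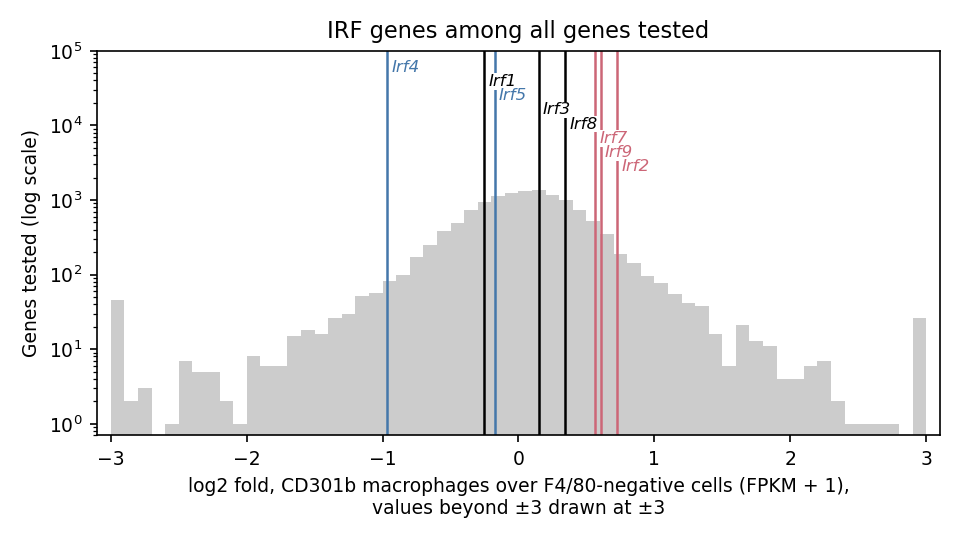
Distribution of the log2 fold of all 13039 tested genes (grey bars, log axis) with the 8 IRF genes as lines, red where higher in CD301b macrophages, blue where lower and black where not past the threshold. Irf4 lies at -0.96 and Irf2 at 0.73, while 5% of genes lay below -0.703 and 5% above 0.752.

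The sequences before the starts of the called genes were read for 3 short patterns, because these genes are themselves known to be controlled by interferon and by IRFs. The first was GAAA, any 2 bases and GAAA again, a core of the interferon-stimulated response element. The next was TTCNNNGAA, known as the gamma-activated site. The last was GGAA, any 2 bases and GAAA, the composite site of PU.1 with an IRF. Both strands were searched in RefSeq windows of 300 bases on GRCm38.p6, from 250 bases before to 50 after each start. Of all 32851 windows, 3.44% held the response element core, 8.30% the gamma-activated site and 2.72% the composite site. All 8 members had a window, 11 in all. Irf2 held all 3 patterns. Its composite match GGAAGTGAAA lies 247 bases before the start and overlaps the core match GAAAATGAAA at 241 bases, and the gamma-activated match TTCCGAGAA lies 224 bases before. Irf1 held TTCCCCGAA 90 bases before its upstream start, and Irf8 held TTCTCGGAA and TTCAGAGAA, 171 and 153 bases before its start. The windows of Irf3, Irf4, Irf5, Irf7 and Irf9 held none of the 3, which says only that these letters are not there. For Irf5 the window lies at the start of the main form, and the start of the called transcript NM_001252382 was not searched. For Irf7 the window was set from base 141266424, so it reaches only 193 bases before the start of the called transcript NM_016850. The windows of Irf9 lie at the starts of NM_008394 and NM_001159418, and the start of NM_001159417 was not searched.

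The stretches before the starts of the 3 higher genes and of Irf4 are printed for comparison, without annotated untranslated bases. They are chr8:46739495-46739731 (plus strand), chr7:141266482-141266674 (minus strand), chr14:55604329-55604578 (plus strand, before the start of NM_001159418) and chr13:30748983-30749225 (plus strand), 5′ to 3′. The Irf9 stretch is not free of exons: bases 55604468 to 55604553 are a coding exon of the scarce form NM_001159417. Capitals mark matches to the patterns, which occur in Irf2 alone among these 4, and a match is not evidence of binding.
Irf2: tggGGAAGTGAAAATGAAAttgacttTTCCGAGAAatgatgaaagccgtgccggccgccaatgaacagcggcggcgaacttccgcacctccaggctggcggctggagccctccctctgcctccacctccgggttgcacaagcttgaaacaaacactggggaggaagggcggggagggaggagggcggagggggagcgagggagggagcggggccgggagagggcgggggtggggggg
Irf7: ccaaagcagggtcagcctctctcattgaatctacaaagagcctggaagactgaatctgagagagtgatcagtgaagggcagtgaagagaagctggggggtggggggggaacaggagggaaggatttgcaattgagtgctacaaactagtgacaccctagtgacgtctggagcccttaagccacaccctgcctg
Irf9: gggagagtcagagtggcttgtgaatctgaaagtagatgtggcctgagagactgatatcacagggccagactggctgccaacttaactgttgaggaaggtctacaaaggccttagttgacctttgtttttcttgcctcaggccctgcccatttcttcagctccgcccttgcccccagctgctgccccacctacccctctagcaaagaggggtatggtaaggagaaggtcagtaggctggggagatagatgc
Irf4: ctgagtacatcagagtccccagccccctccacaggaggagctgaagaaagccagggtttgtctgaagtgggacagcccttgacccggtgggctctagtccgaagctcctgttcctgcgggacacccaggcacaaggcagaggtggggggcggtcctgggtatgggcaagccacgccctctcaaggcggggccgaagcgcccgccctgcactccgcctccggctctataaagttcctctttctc

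The genes around the IRFs in the pathway were then counted by role. By the same rule 11.0% of the 13039 tested genes were higher and 6.20% were lower. None of the 10 interferon genes on the list reached a testable level, and interferon genes outside the list were not counted. All 10 were under 1 FPKM in both populations and 8 were given at 0. Ifnb1 was 0.0513 against 0.199 FPKM and Ifng 0.0813 against 0.120 FPKM. Among 6 receptor chains, 2 were higher in CD301b macrophages and none was lower. Ifnar2, a chain of the type I interferon receptor, was 106 against 64.1 FPKM (1.65-fold), and Il10rb, shared by receptors of interferon lambda and interleukins, was 166 against 83.6 FPKM (1.98-fold). The other type I chain Ifnar1 (30.8 against 34.9 FPKM) and both chains of the interferon gamma receptor, Ifngr1 (107 against 129 FPKM) and Ifngr2 (62.1 against 43.3 FPKM), were not past the threshold.

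Stat2, a partner of Irf9 in ISGF3, was 22.0 against 21.7 FPKM and was not called. Of the kinases, Jak2, which serves the interferon gamma receptor, was 2.21-fold lower (20.9 against 46.1 FPKM). Jak1 (79.5 against 58.2 FPKM) and Tyk2 (13.3 against 14.3 FPKM) were not past the threshold.

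Sensors upstream of Irf3, Irf5 and Irf7 were higher in 8 of 9 cases and lower in none, with a median log2 fold of 0.85. The RNA receptors of endosomes Tlr7 (59.0 against 17.3 FPKM, 3.40-fold) and Tlr8 (52.0 against 14.3 FPKM, 3.64-fold) were the most abundant. Tlr4, the endotoxin receptor, was 35.0 against 13.5 FPKM, and Tlr9, a DNA receptor, was 28.5 against 15.4 FPKM. In the remaining gene, Mb21d1, which encodes the DNA sensor cGAS, a noncoding transcript passed against the direction of the summed level (6.24 against 5.43 FPKM). Of the 13 adaptors and kinases that pass the signal to IRFs, 10 were not called, 2 were higher and 1 was lower. Their median log2 fold was 0.30. Irak1 was 28.6 against 22.6 FPKM and Irak4 14.3 against 9.34 FPKM, both kinases downstream of Toll-like receptors. Ikbkb, which phosphorylates Irf5, was lower at 19.6 against 22.6 FPKM, through a transcript other than its main one. Tbk1, the kinase of Irf3 and Irf7, was 21.7 against 21.4 FPKM and was not called.

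**Figure D5:**
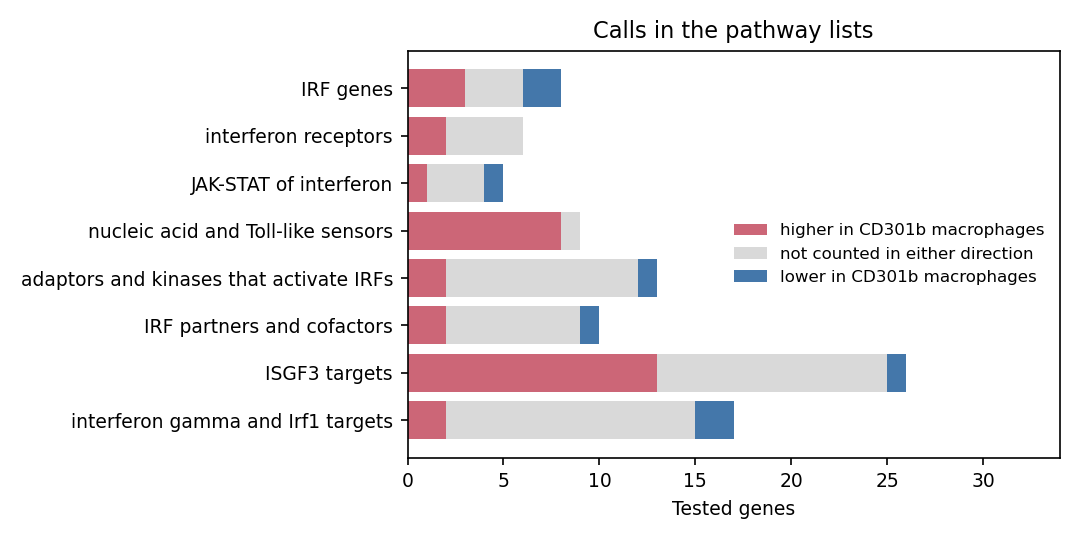
Number of tested genes (horizontal axis) that were higher in CD301b macrophages (red), lower (blue) or counted in neither direction (grey), for the IRF genes and 7 pathway lists. Sensors were higher in 8 of 9 cases, ISGF3 targets in 13 of 26, and interferon gamma and Irf1 targets in 2 of 17. Among all 13039 tested genes 11.0% were higher and 6.20% lower.

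Among 10 partners and cofactors of IRFs, 2 were higher and 1 was lower. Spi1, which encodes PU.1, the partner of Irf4 and Irf8, was 159 against 151 FPKM and was not called. Batf2, a partner of Irf1, was 4.40 against 1.17 FPKM and higher, as was the coactivator Ep300 (14.5 against 7.92 FPKM). Spib, a relative of PU.1 in B cells and plasmacytoid dendritic cells, was lower at 0.557 against 1.80 FPKM. Batf3, the partner of Irf8 in dendritic cells, was 6.43 against 9.71 FPKM, not past the threshold.

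Of 26 targets of ISGF3, CD301b macrophages had higher levels of 13 and lower levels of 1, and 12 were not called. Their median log2 fold was 0.39. Among the higher ones, Oasl2 and Oas1a, of the family of RNA-sensing oligoadenylate synthetases, were 78.1 against 51.1 and 60.3 against 39.0 FPKM. Zbp1, a nucleic acid sensor, was counted as higher at 57.5 against 50.1 FPKM, through 1 of 2 transcripts, and Ifit3 was 42.2 against 19.7 FPKM. Isg15, an interferon-induced ubiquitin-like protein, was the lower member at 65.9 against 102 FPKM. Bst2, the most abundant target, was 164 against 138 FPKM and was not called.

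Of 17 tested targets of interferon gamma and Irf1, 13 were not called, 2 were higher and 2 were lower. The share of higher genes was thus near the 11.0% of all tested genes, and the share of lower genes was above the 6.20% of all. The median log2 fold of the 17 targets was 0.10. The GTPases Irgm1 (36.5 against 18.4 FPKM) and Igtp (20.1 against 13.3 FPKM) were higher. Cd274, which encodes the checkpoint ligand PD-L1, was lower at 36.8 against 54.5 FPKM, and Il12b, a cytokine subunit of dendritic cells, was lower at 0.396 against 3.38 FPKM. Whether these targets and those of ISGF3 differ was not tested.

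Plasmacytoid dendritic cells are a rich source of Irf7. Of their 6 markers, 4 were tested, of which none was higher and 2 were lower in CD301b macrophages. The summed level of all 6 was 25.0 against 33.7 FPKM. Ly6d, with the highest level of the 6 in F4/80-negative cells, was lower at 8.63 against 19.6 FPKM. Tcf4, the highest in CD301b macrophages, was 14.98 against 10.7 FPKM and was not called. Siglech, a defining marker, was 0.634 against 1.10 FPKM, and none of the 6 was at 0. Of 6 monocyte markers, 3 were lower and none was higher, with Plac8 at 290.2 against 536 FPKM and Ccr2, not past the threshold, at 153 against 110.4 FPKM. Their part in the Irf7 result was not tested.

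The genes closest to the called members in both populations, by distance on the log2(FPKM + 1) scale over the 2 values, were Parp14 for Irf9 (33.4 against 21.6 FPKM), Ccng1 for Irf2 (36.9 against 21.8 FPKM), Cd48 for Irf7 (158 against 107 FPKM), Hopx for Irf4 (7.30 against 15 FPKM) and Morf4l2 for Irf5 (83.7 against 99.6 FPKM). With 2 values per gene this likeness is a description only.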

How the data were processed

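RNA from 2 sorted populations with 2 libraries each was sequenced after an Illumina TruSeq mRNA protocol, per the labels' protocols. Tools named in the submitters' processing notes are TopHat2 2.0.2 and Cuffdiff 2.0.2, with mm9 as the build. The sources used here do not say how libraries were combined or whether counting used strand, so reads from a gene and its antisense partner may be mixed. The authors deposited 1 table of 34535 transcripts with 1 FPKM per transcript and population, and an unadjusted p-value that never fell below 5e-05. The deposited log2 fold column held 1788 spreadsheet errors and was not used. Of the accessions, 97.1% were found in RefSeq genes of GRCm38.p6 and 99.2% of these overlapped the table's locus, so coordinates given here are RefSeq or GENCODE M21 positions on GRCm38, counted from 1. FPKM times transcript length took 13011 distinct values in 13044 single-transcript genes, so whole reads could not be recovered and the depth is unknown.

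P-values were adjusted by the Benjamini-Hochberg method over the 16921 transcripts with status OK, which matched the deposited call in all 34535 transcripts. FPKM was summed by symbol (56 transcripts with symbols turned into dates were renamed by accession). For a gene with several transcripts the adjusted p is that of a transcript and not of the sum. Among all genes, 13 with transcripts in both directions and 26 with a transcript against the sum were counted as neither. No test over libraries was possible. The calling rule was run on simulated data, which checks the code and does not bear on the calls given here. Folds are ratios of FPKM, and log2 folds use a pseudocount of 1 FPKM, which understates changes of low genes. Of 17 IRF transcripts, 16 were matched to a GENCODE structure. Named genes were the 8 members, up to 4 called members of each pathway list at 5 FPKM or more (or the 2 most abundant), Adgre1, Mgl2, the most abundant gene of each marker list and the called gene nearest to each called member. Other list genes with values were named after their values were seen. Members, lists and rules were chosen with earlier results of these data known. Python 3.11.15, pandas 2.3.3 and numpy 2.4.6 were used. Some list genes are not reported here.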

Additional observations from a re-analysis of the deposited data

How the results depend on the processing

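No paired analysis was possible because the table holds 1 value per population and none per library, and for the same reason no library could be left out. With an adjusted p of at most 0.01, 3 IRF genes were higher and 1, Irf4, was lower (background 6.50% and 3.54%). With the most abundant transcript deciding each call, 3 were again higher and 1, Irf4, was lower (background 10.4% and 5.82%), and the log2 fold of Irf5 was -0.08. With a Bonferroni adjustment 0 were higher and 0 were lower, and 0 of all 13039 genes were called, because the smallest deposited p of 5e-05 cannot pass over 16921 transcripts. The calls under the filter at 1 FPKM and with protein-coding transcripts only were those given above. Scaling each population to its median gene moved all genes by 0.11 on the log2 scale. Irf2, Irf7 and Irf9 stayed above 0 (0.62, 0.45 and 0.49) and Irf4 and Irf5 below 0 (-1.07 and -0.29). The median log2 fold of the 5 genes of interferon JAK and STAT signalling, 0.02, became -0.089, so no direction is given for that list. Of 40 alternative log2 folds of the 8 genes, 39 kept their sign and their side of the threshold, Irf5 above being the exception. Most of these could not change side. The other pseudocount and the scaling leave the p-values as they are, and keeping only transcripts with status OK leaves the adjustment unchanged. Irf2 and Irf4 have 1 transcript each, so the choice of transcript could not move them. Depth is unknown, so low levels such as those of the interferon genes cannot be given a detection limit.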
